A study of Mus musculus with 6 samples.

Results

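The cytosolic ribosomal protein genes were followed in the brains of mice with an activated human SRY transgene, to see whether the many transcripts of the protein synthesis machinery differed together from those of the controls. Members were chosen by gene symbol, as every probe named Rpl or Rps with a number, or Rplp0 to Rplp2, with the S6 kinases left out. Of the 25697 probes on the array, 79 probes of 61 gene symbols met this rule, 48 for the large and 31 for the small subunit. Both groups were male pups at postnatal day 6 (P6), of the strain labelled FVB and given in the methods as FVB/N, whole brain was taken from 3 mice per group, and each RNA was hybridized to 1 Illumina MouseRef-8 v2.0 bead array. The mice came from 1 line that carried a single copy of the Signalox-hSRY transgene at the H11 locus on chromosome 11. As the methods designate the groups, hSRY-OFF mice carried the transgene without recombination, so that the CAG promoter, which is active in most cell types, drove the red fluorescent protein DsRed2. In hSRY-ON mice, Cre protein from the oocytes of Ddx4-Cre mothers had removed the loxP-flanked DsRed2 cassette in the early embryo, which placed FLAG-tagged human SRY and EGFP under the same promoter. The hSRY-ON mice chosen for the arrays did not themselves carry Ddx4-Cre.

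Each cytosolic ribosome is built from a large and a small subunit, which assemble in the nucleolus from ribosomal RNA and about equal numbers of copies of each ribosomal protein. The small subunit reads the mRNA, and the large subunit joins the amino acids and releases the new protein through an exit tunnel. Most ribosomal protein mRNAs begin with a run of pyrimidines, the terminal oligopyrimidine (TOP) tract, through which the mTOR pathway controls their translation, and growing tissue such as the postnatal brain needs a large supply of them.

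The start of the transcripts was inspected because this tract is the sequence feature that the family is known for. RefSeq promoter entries of build GRCm38.p6 were used for 49 of the 61 symbols, giving 58 start sites, and a window of 30 bases was read from 10 bases before each start to 20 bases from it. An unbroken run of at least 8 letters that were all C or T on the sense strand was held by 20 of the 58 member windows (34.5%) and by 11.2% of all 32851 promoter windows of the table. The same search on the other strand found a run in 3.45% of the member windows and in 13.3% of all windows. The windows are printed for Rps15a, the gene with the largest difference, for Rpl22, Rpl31, Rpl27a and Rpl13a at the ends of the range, and for Rps6, with the run in capitals where there was one. They lie at chr7:118116128-118116157 on the minus strand for Rps15a, chr4:152324426-152324455 on the plus strand for Rpl22, chr1:39367841-39367870 on the plus strand for Rpl31, chr7:109519185-109519214 on the plus strand for Rpl27a, chr7:45128726-45128755 on the minus strand for Rpl13a, and chr4:86857348-86857377 on the minus strand for Rps6.
Rps15a: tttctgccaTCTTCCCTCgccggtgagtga
Rpl22: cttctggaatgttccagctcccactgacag
Rpl31: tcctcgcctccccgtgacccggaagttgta
Rpl27a: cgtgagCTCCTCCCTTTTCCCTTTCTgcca
Rpl13a: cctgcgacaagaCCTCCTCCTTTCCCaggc
Rps6: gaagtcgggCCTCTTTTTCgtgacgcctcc
A run was thus present both in the gene that was most above its hSRY-OFF level, Rps15a, and in Rpl27a and Rpl13a, which were among the lowest. Neither Rpl22, which had a further start site with no run, nor Rpl31 held a run of 8 in its window. These matches describe letters and were not tested as control sites.

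The arrays were alike in the quantities that could bear on such a family. The median intensity was 200 to 220 per array, and 13816 to 14377 probes were detected above background (detection p-value under 0.05), of which 65 or 66 were member probes. A probe was tested when it was detected on at least 3 of the 6 arrays, which 14215 probes passed. Of the 79 member probes, 66 were tested (36 of the large and 30 of the small subunit, from 54 symbols), and 65 of these were detected on all 6 arrays. The 13 probes that did not pass included every probe of Rpl14, Rpl17, Rpl6, Rplp2, Rps23 and the paralogs Rpl3l and Rpl39l, and a probe of the neuronal gene Snap25, which brain expresses strongly, did not pass either, so a probe not above background is no evidence on its gene. Further ribosomal protein genes, among them Rpl5 and Rpl11, the partners of 5S ribosomal RNA, were not analysed here. Many members have processed pseudogenes, with 228 named in RefSeq for 45 of the 61 symbols, to whose transcripts a probe might also bind. Markers of neurons and glia were detected in this tissue labelled whole brain, except Snap25, while of the heart muscle genes Myh6 and Myh7 did not pass the detection filter and Nppa did.

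Across the family, most member probes lay slightly above their hSRY-OFF level in hSRY-ON brains, and only Rps15a rose by the test. All differences below are log2 fold changes, hSRY-ON minus hSRY-OFF, of background-corrected and quantile-normalized signals. They were above 0 for 54 of the 66 tested member probes (81.8%), against 51.1% of all tested probes. The member median was 0.075, with quartiles of 0.016 and 0.18, while all tested probes had a median of 0.0048 and quartiles of -0.14 and 0.14. With limma's moderated test and Benjamini-Hochberg adjustment over all tested probes, 1 member probe passed an adjusted p of 0.05 (2.17% of all tested probes passed), and it was higher in hSRY-ON (0.844% of all tested probes passed in that direction). At an adjusted p under 0.10 the count was 4 member probes against 7.03% of all tested probes, and at an unadjusted p under 0.05 it was 10 member probes (15.2%), 8 higher and 2 lower, against 20.9%. These counts depended on the fit, since with an intensity trend and robust prior 12 member probes were called, 11 of them higher, against 10.2% of all tested probes, and 25 of the 66 had an unadjusted p under 0.05 against 3425 of the 14215. With no background correction 5 were called, 4 of them higher, against 9.26%, and 22 had an unadjusted p under 0.05 against 3414 of the 14215. All 3 hSRY-ON values lay above all 3 hSRY-OFF values for 20 member probes, against 13.5% of all tested probes, and below them for 2, against 14.2%. In either direction that made 22 member probes (33.3%) against 27.7% of all tested probes.

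**Figure D1:**
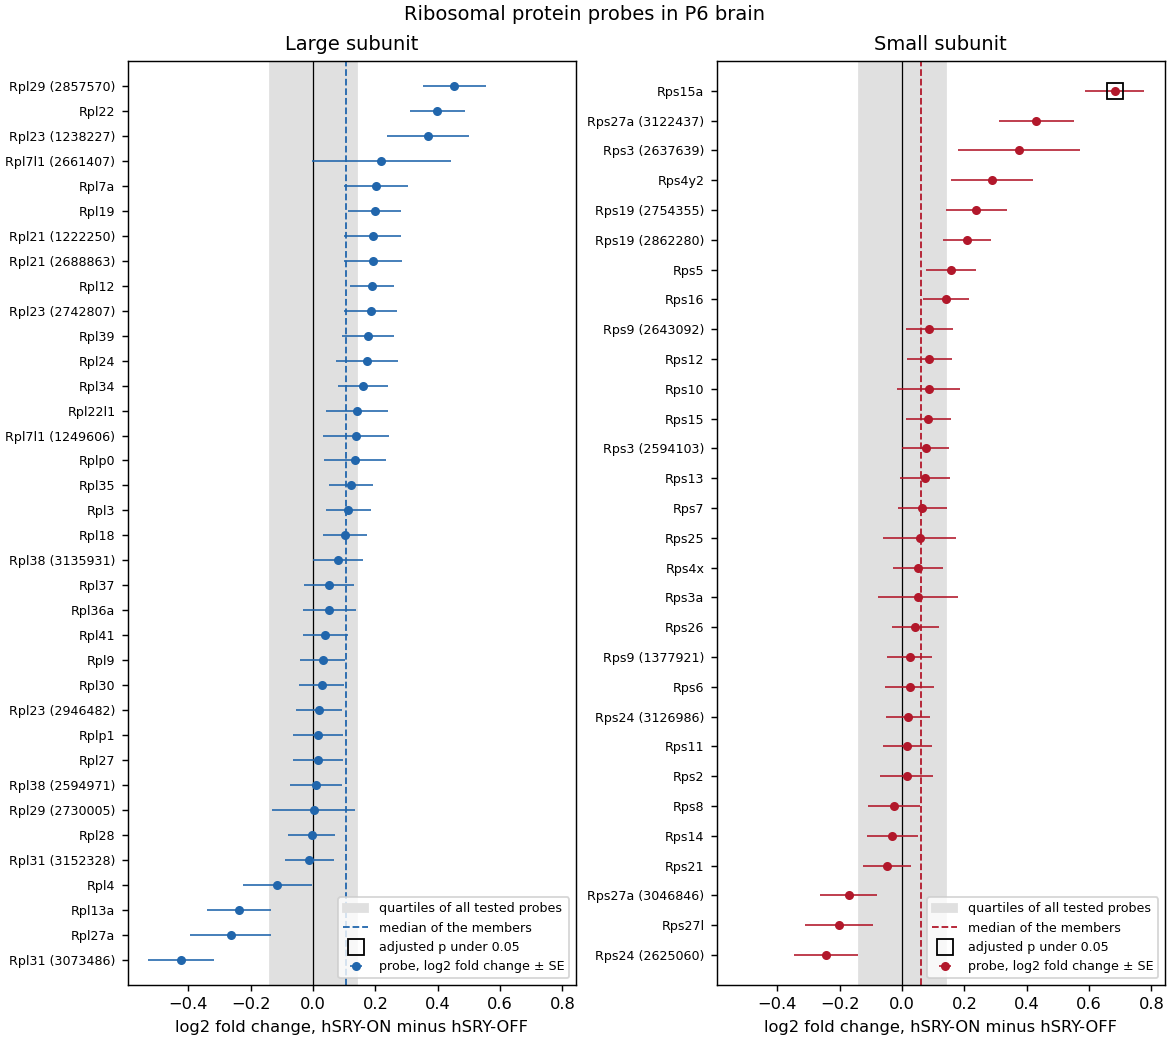
Log2 fold change with its standard error for each of the 66 tested ribosomal protein probes, large subunit at left and small subunit at right, with 3 arrays per group. Points right of 0 are higher in hSRY-ON, the grey band spans the quartiles of all tested probes (-0.14 to 0.14), dashed lines mark the member medians (0.11 and 0.061), and the square marks Rps15a, whose adjusted p was under 0.05. Numbers in parentheses are the probe identifiers of genes with more than 1 member probe.

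The small shift was present on each hSRY-ON array. When each member probe was set against its own hSRY-OFF mean, the median deviation of the 66 probes was 0.078, 0.077 and 0.067 on the arrays of hSRY-ON mice 1 to 3, and -0.0074, -0.013 and 0.025 on those of hSRY-OFF mice 1 to 3. The 3 hSRY-ON medians lay above the 3 hSRY-OFF medians without overlap, and the SD of these medians within groups was 0.015. Medians over all tested probes did not overlap either, but lay closer together. They were 0.0035 to 0.0083 on the hSRY-ON arrays and -0.00059 to 0.0011 on the hSRY-OFF arrays. Members also differed more among themselves on the hSRY-ON arrays, where the interquartile range of the deviations was 0.144 to 0.219, than on the hSRY-OFF arrays, where it was 0.0735 to 0.0846, although the hSRY-OFF mean, which includes those arrays, holds the latter down. No test was made of the member medians, since the members are not independent replicates. The sign of the member median held under every scaling tried, at 0.068 with median scaling, 0.073 with cyclic loess and 0.069 with scaling on probes that were not members.

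**Figure D2:**
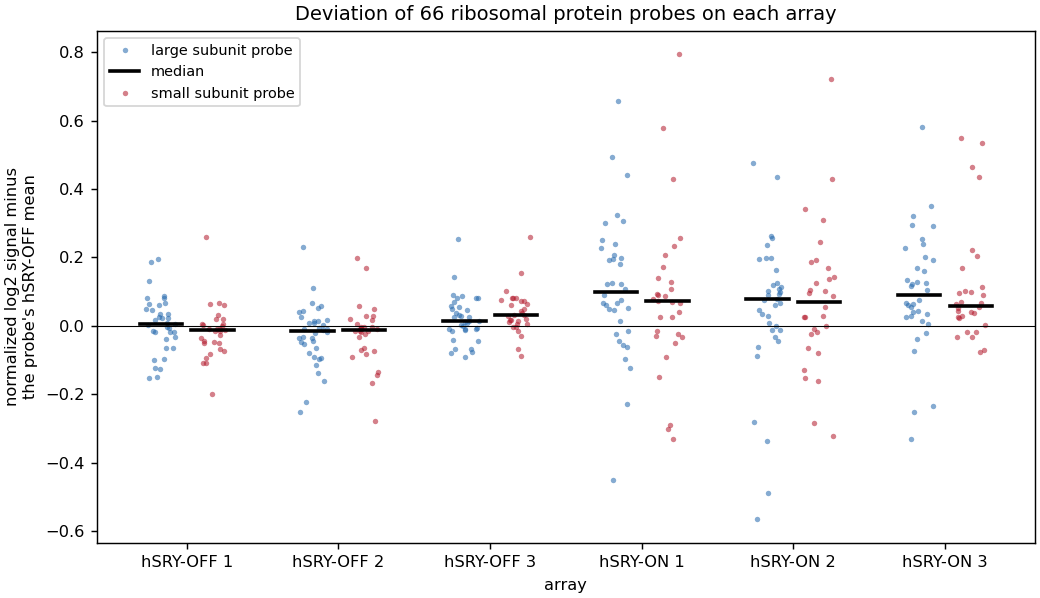
Deviation of each tested ribosomal protein probe from its own mean over the hSRY-OFF arrays (normalized log2 signal), by array, with large subunit probes in blue, small subunit probes in red and black bars at the medians. The medians of both subunits are at 0.059 to 0.1 on the 3 hSRY-ON arrays and at -0.014 to 0.031 on the 3 hSRY-OFF arrays, and the points spread more widely on the hSRY-ON arrays.

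Large and small subunit genes were then compared, since each ribosome needs both in equal number. The large subunit had 30 of 36 probes above 0 (83.3%), a median of 0.11 and a range of -0.42 to 0.45, with no probe called. The small subunit had 24 of 30 probes above 0 (80%), a median of 0.061 and a range of -0.24 to 0.68, with 1 probe called. The difference of the medians was 0.046 and turned to -0.0042 when probes not above background were kept. Per array, the large subunit median minus the small was 0.028, 0.0062 and 0.031 in hSRY-ON mice 1 to 3, and 0.019, -0.0019 and -0.017 in hSRY-OFF mice 1 to 3. The groups overlapped in this difference, so the 2 subunits could not be told apart in their shift at 3 arrays per group.

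Ribosomal protein transcripts gave some of the brightest probes, and the shift was most even among them. A mean log2 signal of at least 13 was reached by 36 of the 66 tested member probes (54.5%) but by 3.28% of all tested probes. Of these 36 probes, 31 were above 0, and their log2 fold changes spanned only -0.049 to 0.21, with a median of 0.059 and an SD of 0.067. The 430 other probes above this limit had a median of -0.0085 with 46.3% above 0, although they were on the whole less bright, with a median log2 signal of 13.58 against 14.29 for the 36 members. The 30 dimmer member probes had a median of 0.14, an SD of 0.25 and the whole range of -0.42 to 0.68. Probes outside the family also spread more widely below that brightness, with an SD of 0.26 against 0.12 above it.

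**Figure D3:**
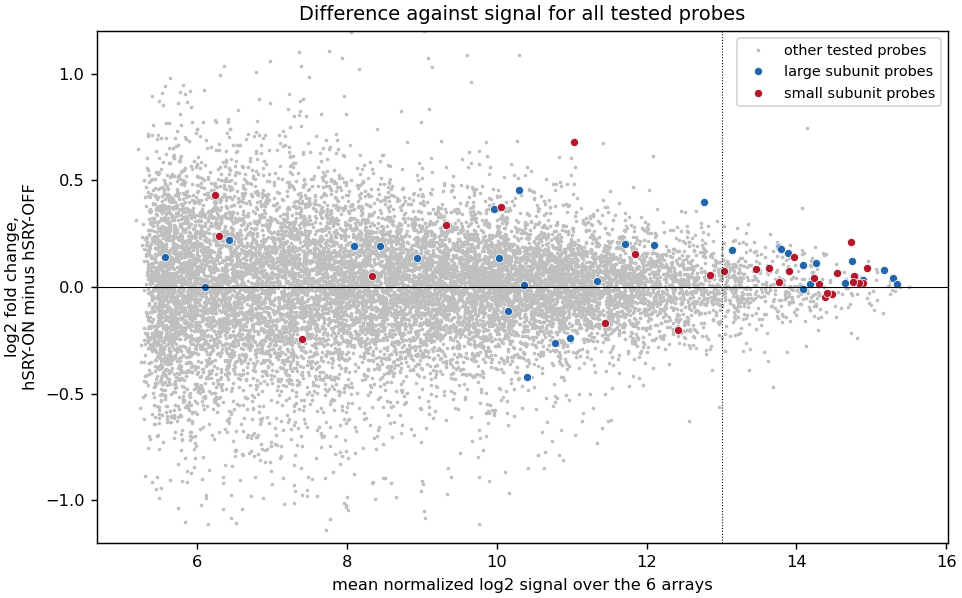
Log2 fold change (hSRY-ON minus hSRY-OFF) against the mean normalized log2 signal over the 6 arrays for all tested probes, with large subunit probes in blue, small subunit probes in red and a dotted line at 13. The 36 member probes right of the line lie between -0.049 and 0.21, and the 30 left of it are scattered over -0.42 to 0.68. The vertical axis ends at 1.2 on both sides of 0, which leaves 24 other probes out of view and no member.

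Rps15a, a protein of the small subunit whose human gene is among those mutated in Diamond-Blackfan anaemia, had the largest difference of the family. Its normalized log2 signal was 10.73, 10.63 and 10.73 in hSRY-OFF mice 1 to 3, and 11.49, 11.42 and 11.23 in hSRY-ON mice 1 to 3. Every hSRY-ON array was above every hSRY-OFF array, with means of 11.38 ± 0.13 and 10.70 ± 0.06 (SD, n = 3). Rps15a rose by 0.68 ± 0.09 (SE) on the log2 scale, or 1.61-fold (limma, adjusted p = 0.0294). The log2 fold change stayed between 0.63 and 0.75 as each array was left out in turn, while the adjusted p was 0.0732 to 0.111 without any of hSRY-OFF arrays 1 to 3 or hSRY-ON arrays 1 and 2 and 0.024 without hSRY-ON array 3. The call therefore held in only 1 of these 6 fits, each of which had 1 array fewer.

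Rpl22, a large subunit protein near the tunnel exit that also binds RNA outside the ribosome, was next among genes with a single probe. Its log2 signal was 12.436, 12.618 and 12.629 on the hSRY-OFF arrays and 13.001, 12.996 and 12.882 on the hSRY-ON arrays. The groups did not overlap, and the log2 fold change was 0.40 ± 0.09 (SE) with an adjusted p of 0.0694. Its paralog Rpl22l1, which can take its place in the ribosome, was close to background, was detected on 4 of the 6 arrays, and had a log2 fold change of 0.14 (adjusted p = 0.46), which was 0.23 without hSRY-OFF array 1 and 0.037 with no background correction. The bright probe of Rpl3, which lies near the catalytic centre, had 0.11 (adjusted p = 0.417), Rpl39 in the exit tunnel had 0.18 (adjusted p = 0.275), and their paralogs Rpl3l and Rpl39l were not above background.

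**Figure D4:**
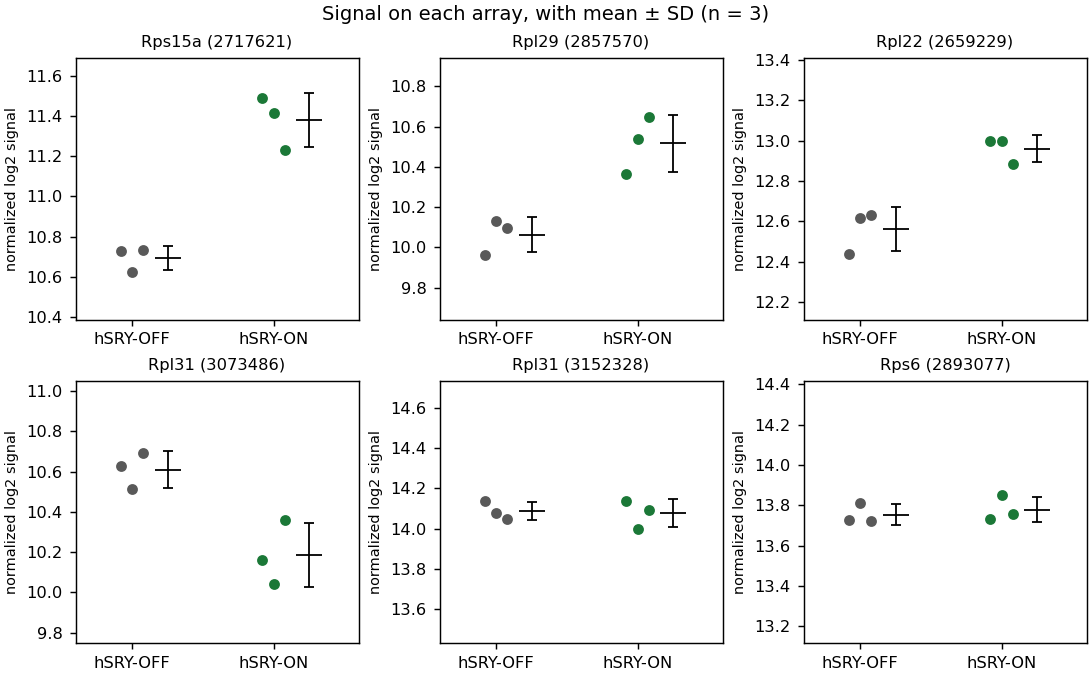
Normalized log2 signal on each array for Rps15a, a probe each of Rpl29 and Rpl22, both probes of Rpl31 and the probe of Rps6, with dots for arrays and bars for the mean ± SD (n = 3 per group). The panels span the same height of 1.3 on the log2 axis and do not start at 0. hSRY-ON dots are all higher for Rps15a, Rpl29 and Rpl22, all lower for the dimmer Rpl31 probe, and overlap the hSRY-OFF dots for the brighter Rpl31 probe and Rps6.

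Genes with more than 1 probe showed how far the family's extreme values depended on the probe. Rpl29, a large subunit protein, had a probe (ILMN_2857570) at 9.96, 10.13 and 10.10 on the hSRY-OFF arrays and 10.36, 10.54 and 10.65 on the hSRY-ON arrays. These groups did not overlap, with a log2 fold change of 0.45 ± 0.10 (SE) and an adjusted p of 0.068. Its other, dim probe (ILMN_2730005) had a log2 fold change of 0.0018. Rpl31, which sits at the exit tunnel, had the lowest value of the family on a probe (ILMN_3073486) at 10.63, 10.51 and 10.69 on the hSRY-OFF arrays and 10.16, 10.04 and 10.36 on the hSRY-ON arrays. All hSRY-ON values were below the hSRY-OFF values, with a log2 fold change of -0.42 ± 0.11 (SE) and an adjusted p of 0.0861. The bright Rpl31 probe (ILMN_3152328) read 14.137, 14.080 and 14.048 on the hSRY-OFF arrays and 14.137, 13.999 and 14.093 on the hSRY-ON arrays. Its groups overlapped, and the log2 fold change was -0.012 (adjusted p = 0.954).

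Rps27a, which is made as a fusion of ubiquitin with a small subunit protein, and Rps24, a small subunit protein, had probes on both sides of 0. The dim Rps27a probe (ILMN_3122437) read 5.93, 5.86 and 6.28 on the hSRY-OFF arrays and 6.45, 6.45 and 6.46 on the hSRY-ON arrays, all higher, with a log2 fold change of 0.43 (adjusted p = 0.11), which was 0.14 with no background correction and 0.24 with an offset of 50. The brighter one (ILMN_3046846) read 11.60, 11.45 and 11.55 on the hSRY-OFF arrays and 11.24, 11.38 and 11.46 on the hSRY-ON arrays, where the groups overlapped, with a log2 fold change of -0.17 (adjusted p = 0.328, and -0.22 to -0.11 as single arrays were left out). For Rps24 the values were -0.24 (ILMN_2625060, adjusted p = 0.236) and 0.02 (ILMN_3126986, adjusted p = 0.904). The first was -0.13 with no background correction, and the second ran from 0.0065 to 0.036 as single arrays were left out. In all, 11 genes had more than 1 tested probe, forming 13 pairs, and 2 pairs differed in sign. The difference between the probes of a pair was compared between groups by an exact permutation test (two-sided, 3 arrays per group), which gave p = 0.1, the smallest this design allows, for 6 pairs of Rpl23, Rpl29, Rpl31, Rps24 and Rps27a, or 0.217 after Benjamini-Hochberg adjustment over the 13 pairs. The pairs of Rpl21 (0.19 and 0.19) and Rps19 (0.24 and 0.21) had like values on both probes in this fit, although the dim Rps19 probe was at 0.082 with no background correction. Which transcripts each probe of a pair binds was not tested.

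The remaining genes at the ends of the range did not pass the test. Rps3, a small subunit protein at the mRNA entry that also acts in DNA repair, had 0.38 ± 0.20 (SE) on its dimmer probe (adjusted p = 0.322), where both groups varied widely at 9.87 ± 0.27 and 10.25 ± 0.33 (SD, n = 3) and the value ran from 0.24 to 0.57 as single arrays were left out, and 0.075 on its brighter probe. Rpl27a had -0.26 (adjusted p = 0.297, and -0.15 without hSRY-ON array 2), Rpl13a, known for a role in silencing inflammatory mRNAs outside the ribosome, had -0.24 (adjusted p = 0.241), and Rps27l, a p53 target and paralog of Rps27, had -0.20 (adjusted p = 0.344). Rpl7l1 had 0.14 and 0.22 on 2 probes (adjusted p = 0.501 and 0.622), which ran from 0.077 to 0.224 and from -0.00042 to 0.446 as single arrays were left out. The probe named Rps4y2, a former name of the pseudogene Rps4l, had 0.29 (adjusted p = 0.262). Rps6, the substrate of S6 kinase, was nearly level at 13.75 ± 0.05 in hSRY-OFF and 13.78 ± 0.06 in hSRY-ON (SD, n = 3), a log2 fold change of 0.024 with a standard error of 0.078. Rps19, the gene most often mutated in Diamond-Blackfan anaemia, had 0.21 on its bright probe (14.63 ± 0.07 and 14.84 ± 0.02, SD, n = 3, adjusted p = 0.18), with no overlap between the groups.

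By their place in the ribosome, the members gave no group of calls. In the stalk, which recruits elongation factors, the 3 tested genes were all above 0, with 0.13 for Rplp0, 0.016 for Rplp1 and 0.19 for Rpl12 (adjusted p = 0.481, 0.933 and 0.188), while Rplp2 was not above background. Without hSRY-ON array 2 Rplp0 was at 0.21, and without hSRY-ON array 3 at 0.054, while Rplp1 turned to -0.023 without hSRY-OFF array 3 and to -0.012 without hSRY-ON array 1. Of the 6 tested genes at the exit tunnel, 4 were above and 2 below 0 with 1 probe per gene, and of the 6 along the mRNA path of the small subunit, 5 were above and 1 below. Of the 10 tested genes mutated in Diamond-Blackfan anaemia, 9 were above 0, against 81.8% of the tested member probes and 51.1% of all tested probes. Among these genes 1, Rps15a, was called, against 2.17% of all tested probes.

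Genes that make or control ribosomes were read with 1 probe per gene, the brightest, to place the family beside its supply. On that footing 44 of the 54 ribosomal protein genes were above 0, with a median of 0.061. Ribosomal proteins that the symbol rule misses were at 0.013 for Rpsa (adjusted p = 0.967), -0.033 for Rpl36al (adjusted p = 0.846) and 0.35 for Rack1, listed as Gnb2l1 (adjusted p = 0.172). The Rpsa and Rack1 probes were dim, with mean log2 signals of 5.87 and 5.54 in hSRY-OFF, against 13.73 for Rpl36al. Of 13 tested genes of other TOP mRNAs, mostly translation factors, 9 were above and 4 below 0, with a median of 0.057, which ran from 0.032 to 0.085 as single arrays were left out, and none called. Their values ran from -0.28 for the histone chaperone Nap1l1 (adjusted p = 0.122) to 0.40 for the RNA-binding protein Hnrnpa1 (adjusted p = 0.0928). An unadjusted p under 0.05 was found for 5 of these 13 genes, 4 higher and 1 lower, against 20.9% of all tested probes in either direction.

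Ribosome assembly factors, the nucleolar proteins that process ribosomal RNA and build the subunits, were more often below than above 0. Of 29 tested genes, 9 were above and 20 below 0, with a median of -0.090 and none called, while 51.1% of all tested probes were above 0. The difference between the assembly factors and the ribosomal protein genes was not tested. An unadjusted p under 0.05 was found for 6 of the 29 genes, all lower, while 1546 of the 14215 tested probes were lower at that threshold. As single arrays were left out, the median ran from -0.10 to -0.031 (the latter without hSRY-ON array 1), and 1 gene was called without hSRY-ON array 3. They ranged from -0.57 for Noc3l (adjusted p = 0.105) to 0.26 for Emg1 (adjusted p = 0.47). RNA polymerase I and its factors, which transcribe ribosomal RNA, had 6 of 11 genes above 0 and none called, from -0.18 for Ubtf (adjusted p = 0.352) to 0.29 for Taf1d (adjusted p = 0.226). In the mTOR and S6 kinase pathway, 11 of 17 genes were above 0 and none called, with a median of 0.033 that ran from 0.045 to 0.11 as single arrays were left out and 1 gene called without hSRY-ON array 3. Its values ran from -0.63 for the S6 kinase gene Rps6kb1 (adjusted p = 0.0828) to 0.57 for the translation inhibitor Eif4ebp1 (adjusted p = 0.236). The Rps6kb1 probe was dim, with mean log2 signals of 5.96 in hSRY-OFF and 5.33 in hSRY-ON.

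The ribosomal proteins of mitochondria, which are encoded by separate nuclear genes and serve only the translation of mitochondrial mRNAs, were more often below than above 0. Of 66 tested genes, 25 were above and 41 below 0, with a median of -0.038, which ran from -0.069 without hSRY-OFF array 2 to -0.0014 without hSRY-OFF array 3. Above 0 were 51.1% of all tested probes. One gene was called (1.32% of all tested probes were called lower), Mrpl51 of the mitochondrial large subunit, which fell from 7.14 ± 0.12 to 6.43 ± 0.19 (SD, n = 3), a log2 fold change of -0.70 with an adjusted p of 0.0386. No gene of this list was called without any of hSRY-OFF arrays 1 to 3 or hSRY-ON arrays 1 and 2, and 2 were called without hSRY-ON array 3. The highest value was that of Mrpl20 at 0.29 (adjusted p = 0.172). The difference between the cytosolic and mitochondrial families was not tested.

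**Figure D5:**
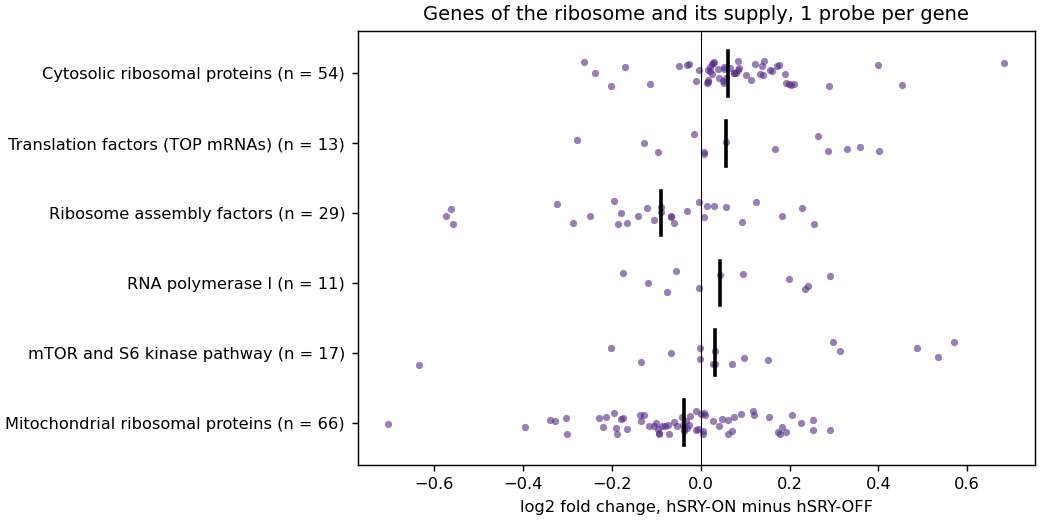
Log2 fold change (hSRY-ON minus hSRY-OFF) of each tested gene, 1 probe per gene, in the cytosolic ribosomal proteins and 5 related lists, with black bars at the medians and the number of genes at left. The medians are 0.061 for cytosolic ribosomal proteins, 0.057 for TOP mRNAs, -0.090 for assembly factors, 0.043 for RNA polymerase I, 0.033 for the mTOR pathway and -0.038 for mitochondrial ribosomal proteins.

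Markers of several cell types moved with the groups. In whole brain, fewer cells of a type and less RNA per cell cannot be told apart. All 3 tested markers of dividing cells (Top2a, Cdk1 and Ccnb1) fell, with a summed normalized signal of 1671 to 1972 in hSRY-OFF and 742 to 1172 in hSRY-ON arrays, while Bub1 was not above background. All 5 oligodendrocyte markers were lower, 1 of them called (Mobp), with sums of 22520 to 28810 and 16980 to 17560. All 5 choroid plexus markers were higher, 1 of them called (Aqp1), with sums of 14740 to 17640 and 18100 to 22600. Of 5 microglial markers, 3 were higher and none was called, with sums of 1581 to 1833 and 1944 to 2150, and of 4 tested endothelial markers, 2 were lower and none was called, with sums of 4634 to 5109 and 3493 to 4262, Kdr being not above background. Astrocyte markers went both ways, 2 of 5 higher and 3 lower, with Aqp4 called lower at -0.81 (adjusted p = 0.0275), Aldoc at 0.28 (adjusted p = 0.105) and sums of 41620 to 42090 and 40460 to 46310. The 4 tested neuronal markers lay between -0.065 and 0.085, none was called, and their sums overlapped at 44610 to 49230 and 46900 to 49660. Of the liver genes, Apoa1 was called higher at 1.08 (adjusted p = 0.0225), Ttr, which choroid plexus also expresses, was at 0.37, and Alb was not above background. The sums overlapped for erythroid cells, at 32650 to 37130 and 29210 to 36510. As single arrays were left out, 0 or 1 probes of all those tested were called without any of hSRY-OFF arrays 1 to 3 or hSRY-ON arrays 1 and 2, so at most 1 of these marker calls held in each such fit. The part of these cell types in the values of the ribosomal protein genes was not tested.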

How the data were processed

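Total RNA from whole brain of 3 hSRY-OFF and 3 hSRY-ON mice, grouped by the genotype in their labels, was measured on Illumina bead arrays. The authors deposited, for each probe and array, a mean bead signal intensity on a linear scale without quantile normalization, and a detection p-value, the share of negative controls at least as bright. For normalization and testing, the published methods cite TCC, an R package, with no settings, and the submitters' processing notes name limma. TCC was not used here. The chip and position of each array were not given in the sources used here.

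Background was removed by the normexp model of limma (negative controls inferred from the steps of the detection p-values, which corresponded to 798 controls, and an offset of 16), followed by quantile normalization and log2. This offset compresses the differences of dim probes. Detection (p-value under 0.05) on 3 or more of the 6 arrays was required for a test with lmFit and eBayes in limma 3.58.1 (R 4.3.3, two-sided), with the group as the only term and Benjamini-Hochberg adjustment over the 14215 probes tested. Calls were made at an adjusted p below 0.05. Adjusted p-values for single probes come from this limma fit. Probes of a gene were tested separately. Brightness served only to choose 1 probe per gene in the related lists and to split the members, and was not read as an order of transcript levels. The steps were tested on simulated data. The 3 arrays per group limit the precision.

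The members, the gene lists and the brightness limit of 13 were chosen with earlier results of these data known. Values were given for called probes, the 5 highest and 5 lowest log2 fold changes, paralogs with their partners, stalk proteins, Rps6, Rps27a, Rps19 and genes with probes on both sides of 0, and in each related list for called genes or else the highest and lowest. A few others, such as the Rpl21 and Rpl23 pairs, were named after their values were seen. Symbols were matched to RefSeq, 59 as current symbols and 2 as synonyms. Sequences from chromosome 18 were not used. Alternatives were other background corrections, scalings, filters, priors, weights and thresholds, a replicate block, leaving out each array, 1 probe per symbol, and the members without paralogs or with the proteins that the symbol rule misses. Plots were made in Python 3.11.15 (matplotlib 3.10.9).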

Additional observations from a re-analysis of the deposited data

How the results depend on the processing

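The family's upward shift was kept in all alternatives run (median above 0, 72.2% to 86.4% of member probes above 0), but the number of called members was not. It was 1 in the fit reported, 5 with no background correction (9.26% of all tested probes called), 4 with normexp on the signals and an offset of 50 (6.05%), 4 with a detection p-value under 0.01 on all 6 arrays (6.07%), 12 with an intensity trend and robust prior (11 higher, 10.2% of all tested probes), 4 at an adjusted p under 0.10, and 0 to 1 when 1 array was left out, where the whole array had 0 or 1 calls, but 417 without hSRY-ON array 3. With the replicate number as a block it was 0, with Rps15a at an adjusted p of 0.103, no probe of the array called, and 9 member probes, of 2906 in all, at an unadjusted p under 0.05. Same-numbered arrays deviated together by r = 0.0404, 0.0294 and 0.0251 over all tested probes and 0.0997, 0.365 and 0.184 over the members, and the labels tie the numbers to no shared litter or batch, so they were not taken as pairs. With no filter the member median was 0.0523. The large subunit median was 0.084 with no background correction, 0.0904 with the offset of 50, 0.127 with cyclic loess, 0.0523 with no filter and 0.0803 without the paralogs. The large minus small difference was 0.0242, 0.0301, -0.00418 and 0.0197 with no background correction, the offset of 50, no filter and no paralogs. Leaving out arrays gave medians of 0.0517 to 0.0972 for members, 0.0868 to 0.123 for the large and 0.0377 to 0.0816 for the small subunit, and a difference of 0.0176 to 0.0537. Member probes above 0 numbered 50 to 54 in these fits. Several small differences turned sign, among them Rplp1 (-0.0235 to 0.0527), the dimmer Rpl7l1 probe (-0.00042 to 0.446) and Rps6 (-0.0114 to 0.051). The RNA polymerase I median turned to -0.0232 without hSRY-ON array 2 and to -0.00286 with the detection p-value of 0.01. The cause of these changes was not tested. Dim probes limit what can be said of the 13 member probes not above background.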
